A study of Mus musculus with 6 samples.

Results

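Aldehyde dehydrogenases are enzymes that oxidise aldehydes to carboxylic acids with NAD or NADP. The genes described here are 10 rows of the deposited count table, out of 23337, that were chosen by symbol from a list: Aldh1a1, Aldh1a2, Aldh1a3, Aldh1b1, Aldh2, Aldh3a2, Aldh3b1, Aldh4a1, Aldh5a1 and Aldh7a1. The list was drawn up with the difference between the culture conditions already known, so the values of these 10 genes are given as a description and no p-value is given for any of them. The table holds 21 aldehyde dehydrogenase genes in all, and the other 11 are set beside the listed ones.

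The libraries were made from polyadenylated RNA of mouse hematopoietic stem and progenitor cells (HSPCs), the blood-forming cells of the marrow, that carry the acute leukemia fusion gene MLL-AF9 as transforming oncogene. The pro-lymphoid group (lymphoid replicates 1, 5 and 6) and the pro-myeloid group (myeloid replicates 2, 3 and 4) had 3 libraries each, and the oncogene is common to both. The labels used here give neither strain nor age, nor the cytokines of either culture, nor the culture or animal behind each library, so each p-value reflects variation among 6 libraries that could be technical in origin.

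Members of the family differ in their compartment and in the aldehyde they take. The ALDH1A enzymes make retinoic acid, a hormone of differentiation, from retinal, and high ALDH activity is widely used as a mark of blood stem cells. ALDH2 and ALDH1B1 clear acetaldehyde in mitochondria, and ALDH2 also protects blood stem cells from formaldehyde. ALDH3A2 and ALDH3B1 act on long-chain and lipid-derived aldehydes, and ALDH4A1, ALDH5A1 and ALDH7A1 oxidise semialdehydes that arise in the breakdown of proline, GABA and lysine.

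Libraries held 34972488 to 46724382 counts, and 3 counts in a library correspond to 0.065 to 0.0888 CPM (the count scaled to the size of its library). The first principal component of log2 CPM parted the cultures with 81.1% of the variance. On the second (9.25%) myeloid replicate 2 stood apart, at 44.2 against -27.5 and -15.2 for myeloid replicates 3 and 4. All 6 genes checked for HSPC identity were detected in every library, and they differed in direction: Kit and Cd34 were higher in pro-lymphoid culture, and Ptprc, Myb, Hoxa9 and Meis1 lower (edgeR adjusted p under 0.05). The Ptprc call (edgeR adjusted p = 0.0469) held without myeloid replicate 2 and ended when any other single library was left out. It also ended with upper-quartile scaling, no scaling factors or no filter, and the Kit call ended without lymphoid replicate 6. Kit, the stem cell factor receptor gene, had 68.4 to 102 CPM in pro-lymphoid and 13.3 to 42.6 CPM in pro-myeloid libraries, and Hoxa9, a homeobox gene of MLL-AF9 leukemia, 99.0 to 121 CPM in pro-lymphoid and 209 to 219 CPM in pro-myeloid libraries. The summed level of 10 neutrophil granule genes was 193 to 390 CPM in pro-lymphoid and 4540 to 9120 CPM in pro-myeloid culture. Elane, Mpo, Prtn3 and Ctsg made up most of the pro-myeloid sum. Mmp8 was not called, at 24.3 to 98.8 CPM in pro-lymphoid and 1.17 to 114 CPM in pro-myeloid libraries, and Ltf and Camp did not enter the fit. For 10 dendritic cell genes the sum was 567 to 949 CPM in pro-lymphoid and 7.37 to 84.5 CPM in pro-myeloid culture. Flt3 was most of this sum in pro-lymphoid culture by mean, at 390 to 511 CPM. The sum therefore largely follows that gene and is no measure of dendritic cell content. Xcr1 was not called, and Zbtb46, Cd209a and Batf3 did not enter the fit. For 10 macrophage genes the sums were 322 to 1040 CPM in pro-lymphoid and 336 to 691 CPM in pro-myeloid libraries. In this list Marco and Cd163 were higher in pro-lymphoid culture and Mertk lower (edgeR adjusted p under 0.05). Each of these genes entered the fit only through the culture where it is high. Mertk had 3 counts in the pro-lymphoid libraries together against 43 in the pro-myeloid ones, and its call ended without lymphoid replicate 6. Marco had 41.0 to 425 CPM in pro-lymphoid and 0.0296 to 1.30 CPM in pro-myeloid libraries, Cd163 had 4.58 to 11.2 CPM in pro-lymphoid and 0 to 0.0217 CPM in pro-myeloid libraries, and Csf1r, the largest part of the sum by mean and not called, had 181 to 409 CPM in pro-lymphoid and 251 to 579 CPM in pro-myeloid libraries. For 8 mast cell and basophil genes the sums were 1.39 to 3.47 CPM in pro-lymphoid and 10.1 to 107 CPM in pro-myeloid libraries, with Fcer1a, Tpsb2, Cma1 and Prss34 at 0. Hdc, the largest part by mean, had 0.521, 29.8 and 76.3 CPM in myeloid replicates 2, 3 and 4 and overlapped the pro-lymphoid values. Its call held without myeloid replicate 2 and ended when any other single library was left out. Mcpt8 and Ms4a2 were also called lower in pro-lymphoid culture, and leaving out single libraries ended neither call. Of 10 fibroblast and stromal markers Col1a2, Col3a1, Dcn and Lum were at 0 in all libraries, and the list summed to 2.01 to 19.7 CPM in pro-lymphoid and 5.80 to 17.5 CPM in pro-myeloid libraries. Pdgfrb, which was not called, made up most of these sums. Col1a1 was called lower in pro-lymphoid culture, with 4 counts there against 84 in pro-myeloid libraries (edgeR adjusted p = 0.00777). It entered the fit only through the pro-myeloid libraries, and its call ended without lymphoid replicate 6. The part of these cell types in the results below was not tested, and in bulk RNA fewer cells of a type and less RNA per cell cannot be told apart.

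Of the 10 listed genes 7 had enough counts to enter the fit (at least 0.262 CPM in 3 libraries), and all 7 had a lower fitted level in pro-lymphoid than in pro-myeloid culture. The groups did not overlap for 6 of them, all but Aldh2, and the same 6 lay under the edgeR adjusted p of 0.05 used for all genes. These counts describe how the list was chosen and are no test of it, and Aldh5a1 entered the fit only through the pro-myeloid libraries, where it is high. Over all 12477 genes tested, 38.6% passed in either direction and 21.3% passed as lower, and the groups did not overlap for 53.5%, lower in pro-lymphoid culture for 27.2%. Nothing is read from the listed genes' counts beside these shares. Aldh1a1, Aldh1a2 and Aldh1a3 did not enter the fit.

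**Figure D1:**
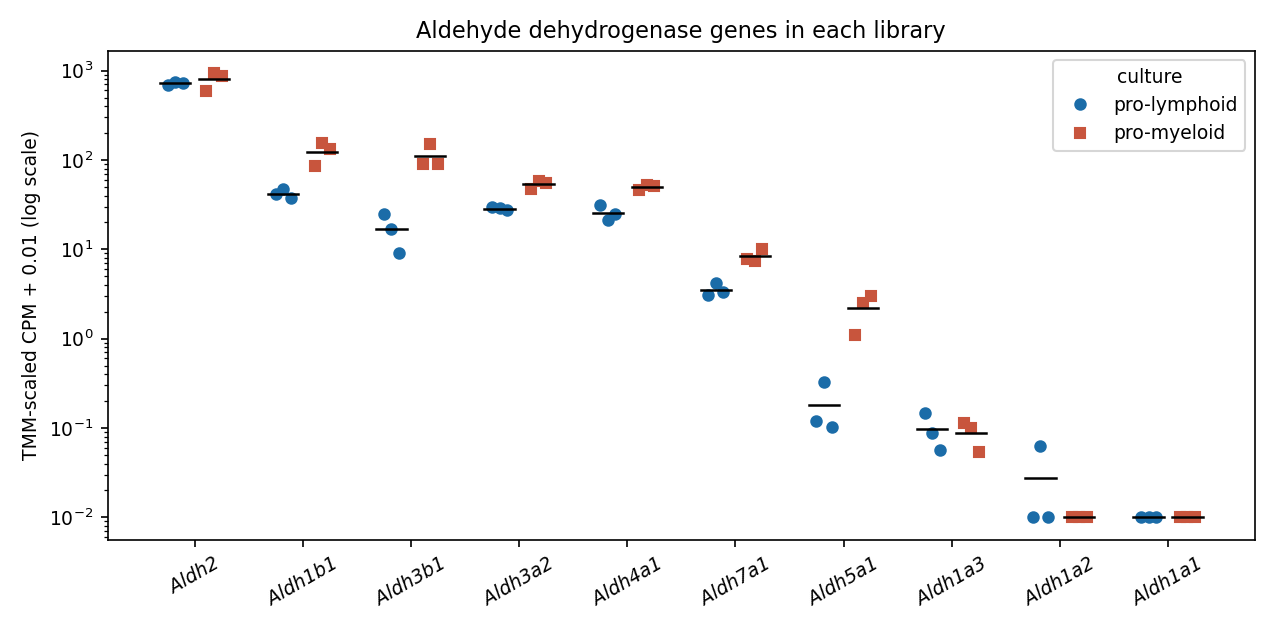
Levels in TMM-scaled CPM, with 0.01 added and drawn on a logarithmic y axis, for each of the 10 listed genes along the x axis. Circles are the 3 pro-lymphoid and squares the 3 pro-myeloid libraries, and short lines give the group means: Aldh2 lies highest, at 690 to 755 CPM in pro-lymphoid and 589 to 941 CPM in pro-myeloid libraries, the next 6 genes lie lower in the pro-lymphoid libraries, and the 3 ALDH1A genes lie at or near 0.

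The proximal promoters of 4 genes are shown, since the data bear on them in different ways: Aldh3b1, which had the largest fold among the listed genes with a mean above 10 CPM in both cultures; Aldh4a1, which has 3 CCAAT boxes; and Aldh1a1 with its neighbour Aldh1a7, which share most of the bases next to the start and are both at or near 0 here. Each sequence is the 250 bases before the RefSeq start (build GRCm38.p6), 5′ to 3′ on the gene's strand, with matches to the motifs searched in capitals. The intervals are chr19:3929779-3930028 (minus strand) for Aldh3b1, chr4:139622644-139622893 (plus strand) for Aldh4a1, chr19:20601718-20601967 (plus strand) for Aldh1a1 and chr19:20727557-20727806 (minus strand) for Aldh1a7.
Aldh3b1: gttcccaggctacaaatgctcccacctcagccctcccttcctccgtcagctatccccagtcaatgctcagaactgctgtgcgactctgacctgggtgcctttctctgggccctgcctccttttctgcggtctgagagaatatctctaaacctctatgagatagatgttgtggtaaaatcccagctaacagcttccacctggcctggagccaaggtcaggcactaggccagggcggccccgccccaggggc
Aldh4a1: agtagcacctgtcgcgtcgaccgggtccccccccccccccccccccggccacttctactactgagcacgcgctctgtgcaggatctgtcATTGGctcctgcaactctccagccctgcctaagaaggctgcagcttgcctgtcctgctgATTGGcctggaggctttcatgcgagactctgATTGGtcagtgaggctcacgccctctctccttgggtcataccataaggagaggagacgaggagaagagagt
Aldh1a1: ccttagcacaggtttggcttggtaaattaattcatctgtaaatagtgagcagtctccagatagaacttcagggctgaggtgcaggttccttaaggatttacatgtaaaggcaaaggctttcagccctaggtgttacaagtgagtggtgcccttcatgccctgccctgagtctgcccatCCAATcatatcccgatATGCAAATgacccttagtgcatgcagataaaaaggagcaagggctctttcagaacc
Aldh1a7: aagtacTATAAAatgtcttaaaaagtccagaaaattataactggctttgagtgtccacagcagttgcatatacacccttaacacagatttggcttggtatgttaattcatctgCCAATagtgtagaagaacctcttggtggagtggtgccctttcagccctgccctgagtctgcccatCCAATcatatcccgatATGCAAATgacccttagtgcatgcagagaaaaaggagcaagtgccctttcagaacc

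Both strands were searched for several motifs, spelled here by their letters. They were the CCAAT box and the octamer ATGCAAAT bound by POU factors. For C/EBP factors the letters were TTGCNNAA, and for the blood cell factor PU.1 they were GAGGAAGT. The antioxidant response element was searched as TGACNNNGC and the TATA box as TATAAA. The retinoic acid response element was searched as the half-site AGGTCA repeated in the same direction after any 5 bases. None of the matches shown overlap each other. Promoter windows were searched for 7 of the 10 listed genes, not for Aldh1a3, Aldh2 and Aldh7a1. Family promoters on chromosome 18, which holds Aldh7a1, were left out of the search. A CCAAT box stood in 5 of the 7 (Aldh1a1, Aldh1a2, Aldh3a2, Aldh4a1 and Aldh5a1), against 33.8% of 32851 promoter windows of the same length. In Aldh4a1 the boxes began 161, 102 and 71 bases before the start, all on the reverse strand. Aldh1a1 and Aldh1a7 both had a CCAAT box 72 bases and an octamer 56 bases before the start, and the octamer stood in 1.60% of all windows. The last 100 bases of these promoters matched at 94 positions. Aldh1a2 also held an octamer and an antioxidant response element (10.2% of windows), in a window of 77.6% G and C. Aldh3b1 and Aldh1b1 held none of these motifs in the window, and no listed gene held the PU.1 motif (2.44% of windows), the TATA box (12.4%) or the retinoic acid element (0.00913%). The C/EBP motif (9.56%) matched in 1 listed gene, in a second and more distant start of Aldh1a1.

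The retinaldehyde dehydrogenases were at or near 0 in both cultures. Aldh1a1 (mm10, chromosome 19, 20601982 to 20643462, plus strand), the enzyme most often tied to ALDH activity of blood stem cells, had 0 counts in each of the 6 libraries, which allows up to 0.065 to 0.0888 CPM per library. Aldh1a2 (chromosome 9, 71215789 to 71296243, plus strand), the main retinoic acid source of the early embryo, had 0, 2 and 0 counts in lymphoid replicates 1, 5 and 6 and 0 in each pro-myeloid library. Aldh1a3 (chromosome 7, 66390893 to 66427477, minus strand) had 5, 3 and 2 counts in pro-lymphoid and 4, 3 and 2 counts in pro-myeloid libraries. No level of these 3 genes could be set apart from 0 by more than a few reads, and no fold is given. Aldh1a7, the rodent neighbour of Aldh1a1, had 1 count in myeloid replicate 2 and 0 in the other libraries, so neither copy drew more than 1 count in any library.

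Aldh2, which encodes the mitochondrial enzyme for acetaldehyde, was the most abundant of the 10 genes, and its values overlapped between the cultures (chromosome 5, 121567687 to 121593824, minus strand). It had 690, 755 and 725 CPM in lymphoid replicates 1, 5 and 6, against 589, 941 and 880 CPM in myeloid replicates 2, 3 and 4. The pro-lymphoid values lay within the pro-myeloid range, whose lowest value was that of myeloid replicate 2. The log2 fold change was -0.15 ± 0.19 (pro-lymphoid minus pro-myeloid, SE), and -0.33 without myeloid replicate 2.

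Aldh1b1, a mitochondrial paralog of Aldh2, was lower in pro-lymphoid culture (chromosome 4, 45799022 to 45804608, plus strand). It had 41.3, 47.2 and 37.7 CPM in lymphoid replicates 1, 5 and 6, against 85.8, 154 and 133 CPM in myeloid replicates 2, 3 and 4. Every pro-lymphoid value lay below every pro-myeloid value, and myeloid replicate 2 was nearest to them. The means were 42.1 ± 4.80 CPM in pro-lymphoid and 124 ± 34.9 CPM in pro-myeloid culture (SD, n = 3 each), a log2 fold change of -1.56 ± 0.22 (SE).

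The genes for fatty and lipid-derived aldehydes were both lower in pro-lymphoid culture, by different amounts. Aldh3b1, whose product acts on aldehydes of lipid peroxidation, had 24.8, 17.1 and 9.15 CPM in lymphoid replicates 1, 5 and 6, against 91.0, 149 and 90.7 CPM in myeloid replicates 2, 3 and 4 (chromosome 19, 3913491 to 3929716, minus strand). It varied within pro-lymphoid culture by a factor of 2.71 between the highest and lowest library, and the groups stayed apart. Its log2 fold change was -2.70 ± 0.38 (SE), with -3.08 to -2.40 when single libraries were left out.

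Aldh3a2 encodes the fatty aldehyde dehydrogenase of the endoplasmic reticulum and peroxisome, the enzyme lost in Sjögren-Larsson syndrome (chromosome 11, 61244755 to 61267127, minus strand). It had 29.5, 28.8 and 27.2 CPM in lymphoid replicates 1, 5 and 6, against 47.4, 58.3 and 54.8 CPM in myeloid replicates 2, 3 and 4. The pro-lymphoid libraries were close together, with a highest to lowest ratio of 1.09, and all were below the pro-myeloid ones. The log2 fold change was -0.91 ± 0.13 (SE).

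The mitochondrial semialdehyde dehydrogenases of amino acid breakdown were lower in pro-lymphoid culture too. Aldh4a1, which completes proline breakdown to glutamate, had 31.0, 21.5 and 24.8 CPM in lymphoid replicates 1, 5 and 6, against 45.7, 52.9 and 50.7 CPM in myeloid replicates 2, 3 and 4 (chromosome 4, 139622894 to 139649691, plus strand). The groups did not overlap, and the log2 fold change was -0.95 ± 0.16 (SE).

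Aldh7a1, which oxidises the semialdehyde of lysine breakdown, was a low gene at 3.07, 4.21 and 3.28 CPM in lymphoid replicates 1, 5 and 6, against 7.81, 7.43 and 10.1 CPM in myeloid replicates 2, 3 and 4 (chromosome 18, 56525736 to 56572939, minus strand). The groups were apart, with a log2 fold change of -1.26 ± 0.24 (SE). Exons of Aldh7a1 overlap those of Phax, on the opposite strand, over 176 bases or 5.5% of its length, and counting without strand leaves those reads uncertain. Phax stood at 35.3 to 37.1 CPM in pro-lymphoid and 31.5 to 37.2 CPM in pro-myeloid libraries.

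Aldh5a1, the succinic semialdehyde dehydrogenase of GABA breakdown, had the largest fold of the 7 genes at the lowest level (chromosome 13, 24907579 to 24937661, minus strand). It had 4, 12 and 4 counts in lymphoid replicates 1, 5 and 6, against 42, 84 and 139 counts in myeloid replicates 2, 3 and 4. In CPM these were 0.109, 0.314 and 0.0931 in pro-lymphoid against 1.09, 2.49 and 3.01 in pro-myeloid libraries, with no overlap. It entered the fit only through the pro-myeloid libraries, since 1 of 3 pro-lymphoid libraries reached 0.262 CPM. Its log2 fold change was -3.68 ± 0.62 (SE), and -4.42 without lymphoid replicate 5. Its exons overlap those of 4932702P03Rik, which had 0 counts in all libraries, over 567 bases on the opposite strand. An exact 95% interval of the ratio of summed counts, pro-myeloid over pro-lymphoid, ran from 8.39 to 22.0 and covers counting error only. The genes whose centred log2 CPM values over the 6 libraries lay nearest to those of Aldh5a1 were Wdr31, Zfp3 and Nfia, with root mean square differences of 0.235, 0.282 and 0.307 on the log2 scale after 0.05 CPM was added. Wdr31 had 0, 0.0523 and 0 CPM in lymphoid replicates 1, 5 and 6, so the added value largely sets its likeness. Zfp3 had 0.0543, 0.235 and 0.0233 CPM in the same libraries, so its likeness also leans on the added value.

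**Figure D2:**
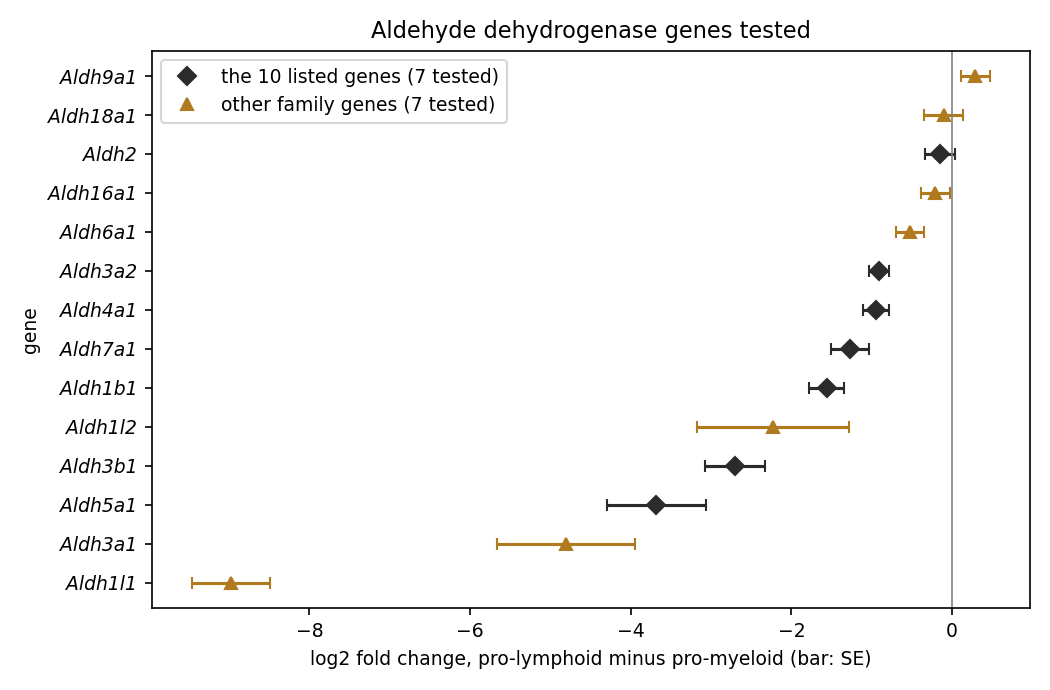
Difference of pro-lymphoid minus pro-myeloid culture on the log2 scale (x axis) with SE bars of the 14 aldehyde dehydrogenase genes that entered the fit (y axis), diamonds for the listed genes and triangles for the others. Values run from -8.98 for Aldh1l1 to 0.29 for Aldh9a1, and Aldh2 lies at -0.15. Nothing is read from the value of Aldh3a1, whose 2 pro-lymphoid counts were in 1 library.

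Levels per length were compared as RPKM, the CPM per kilobase of gene length. Aldh2 led in both cultures, at 328 ± 14.7 in pro-lymphoid and 364 ± 85.3 RPKM in pro-myeloid culture (SD, n = 3 each). Aldh1b1 followed at 18.3 ± 2.08 RPKM in pro-lymphoid culture, above Aldh3b1 (9.27 ± 4.26), Aldh3a2 (9.11 ± 0.382) and Aldh4a1 (7.68 ± 1.43), whose neighbours in this order overlapped. In pro-myeloid culture Aldh3b1 (60.2 ± 18.4 RPKM) and Aldh1b1 (54.0 ± 15.2) overlapped and stood above Aldh3a2 (17.1 ± 1.79) and Aldh4a1 (14.8 ± 1.09), which overlapped in turn. Aldh7a1 came next in both cultures, at 1.10 ± 0.190 RPKM in pro-lymphoid and 2.64 ± 0.444 RPKM in pro-myeloid culture, and Aldh5a1 after it, at 0.0304 ± 0.0218 RPKM in pro-lymphoid and 0.389 ± 0.176 RPKM in pro-myeloid culture. In pro-lymphoid culture Aldh5a1 and Aldh1a3 (0.0256 ± 0.0133 RPKM) overlapped.

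The summed level of the 10 genes was 364, 389 and 367 RPKM in lymphoid replicates 1, 5 and 6, against 385, 612 and 542 RPKM in myeloid replicates 2, 3 and 4, with overlap through myeloid replicate 2. Without Aldh2 the sums were 51.1, 46.9 and 38.5 RPKM in the pro-lymphoid libraries, against 118, 186 and 144 RPKM in the pro-myeloid ones. That these sums did not overlap follows from the choice of genes, since Aldh2 was the only fitted listed gene whose groups overlapped. Of the RPKM of all 21 family genes, the share of Aldh2 was 63.0 ± 1.08% in the pro-lymphoid libraries and 54.5 ± 1.33% in pro-myeloid culture (SD, n = 3 each). Aldh1b1 held 3.51 ± 0.279% in the pro-lymphoid libraries and 8.03 ± 0.548% in pro-myeloid culture, and Aldh3b1 held 1.80 ± 0.888% in the pro-lymphoid libraries and 9.09 ± 1.87% in pro-myeloid culture. Myeloid replicate 2 was the lowest pro-myeloid library for 5 of the 7 fitted genes in CPM, and its shares for Aldh2 (53.3%), Aldh1b1 (7.45%) and Aldh3b1 (9.92%) stood beside those of myeloid replicates 3 (54.4%, 8.54% and 10.4%) and 4 (55.9%, 8.10% and 6.95%).

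**Figure D3:**
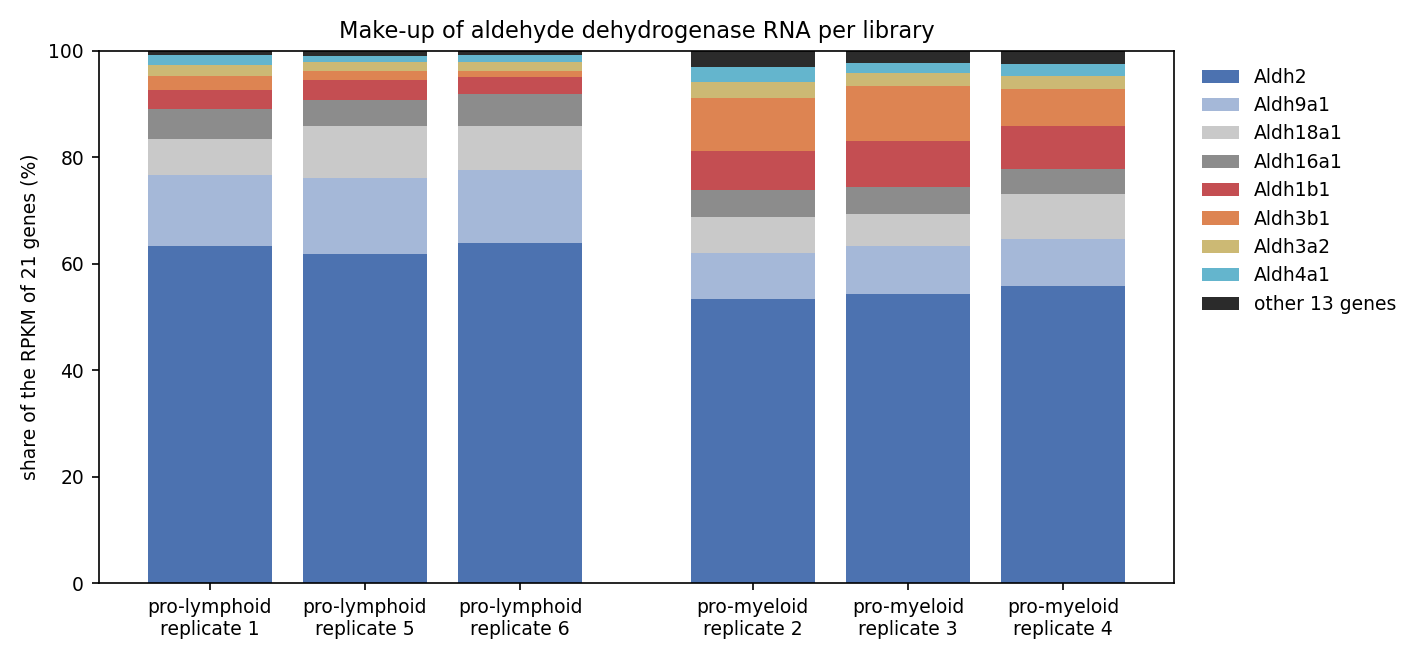
Share of the summed RPKM of 21 aldehyde dehydrogenase genes (y axis, %) held by 8 genes and by the other 13 together, in each of the 3 pro-lymphoid and 3 pro-myeloid libraries (x axis). Aldh2 holds 61.8 to 63.9% in the pro-lymphoid libraries and 53.3 to 55.9% in pro-myeloid libraries, where the bands of Aldh1b1 and Aldh3b1 are wider. Shares sum to a fixed whole, and Aldh1b1 and Aldh3b1 were listed with this contrast known.

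Outside the list, 7 of the other 11 aldehyde dehydrogenase genes entered the fit. Of these, 3 fell in pro-lymphoid culture and the other 4 were not called (edgeR adjusted p under 0.05). Over all genes tested, 21.3% passed as lower. The median log2 fold change was -0.52, against 0.00 over all genes tested. The 11 genes were also listed with earlier results of these data known, so their count and median are descriptions and no test. Aldh1l1, the cytosolic 10-formyltetrahydrofolate dehydrogenase of folate metabolism, fell most. It had 2, 1 and 1 counts in lymphoid replicates 1, 5 and 6, against 962, 647 and 555 counts in myeloid replicates 2, 3 and 4 (0.0346 ± 0.0171 CPM in pro-lymphoid and 18.8 ± 6.52 CPM in pro-myeloid culture, SD, n = 3 each). Its log2 fold change was -8.98 ± 0.49 (SE, edgeR adjusted p = 8.27e-07), and the ratio of summed counts had an exact 95% counting interval of 211 to 1980. Aldh3a1, an NADP-linked paralog beside Aldh3a2 on chromosome 11, had 2, 0 and 0 counts in pro-lymphoid against 26, 16 and 24 counts in pro-myeloid libraries (edgeR adjusted p = 0.00287), a pro-myeloid over pro-lymphoid ratio of 32.9 with an exact 95% counting interval of 8.76 to 278. Both pro-lymphoid counts were in 1 library, so no fitted fold change is given. Both genes entered the fit only through the pro-myeloid libraries.

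Aldh6a1, the methylmalonate semialdehyde dehydrogenase of valine breakdown, stood at 9.25, 7.77 and 8.82 CPM in pro-lymphoid and 12.4, 11.6 and 12.99 CPM in pro-myeloid libraries (log2 fold change -0.52 ± 0.17, SE, edgeR adjusted p = 0.0484). Leaving out each of the 6 libraries in turn ended this call every time (edgeR adjusted p = 0.0619 to 0.156), as did upper-quartile scaling, no scaling factors and no filter (edgeR adjusted p = 0.0686, 0.0748 and 0.0533). Its exons overlap those of 2900006K08Rik on the opposite strand over 99 bases. Aldh1l2, the mitochondrial counterpart of Aldh1l1, was uneven within both cultures, at 0.977, 11.5 and 2.33 CPM in lymphoid replicates 1, 5 and 6 and 4.74, 27.0 and 37.3 CPM in myeloid replicates 2, 3 and 4. It was not called (log2 fold change -2.23 ± 0.95, SE, edgeR adjusted p = 0.103), but passed without lymphoid replicate 5 (-3.78, edgeR adjusted p = 0.0293) or myeloid replicate 2 (-2.71, edgeR adjusted p = 0.0282).

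The remaining abundant genes of the family were not called. Aldh9a1, an enzyme of carnitine synthesis, stood at 204 ± 18.7 CPM in pro-lymphoid and 167 ± 38.7 CPM in pro-myeloid culture (SD, n = 3 each; edgeR adjusted p = 0.246). Aldh16a1, which lacks the catalytic residue in mammals, stood at 73.3 ± 6.95 CPM in pro-lymphoid and 84.8 ± 19.7 CPM in pro-myeloid culture (edgeR adjusted p = 0.396), and 141 bases of its exons overlap Pih1d1 on the opposite strand. Aldh18a1, which makes the precursor of proline, stood at 153 ± 36.6 CPM in pro-lymphoid and 164 ± 46.0 CPM in pro-myeloid culture (edgeR adjusted p = 0.768). Aldh3b2 and Aldh3b3 (counted under the older symbol 1700055N04Rik), neighbours of Aldh3b1, had 3 and 7 counts in the pro-lymphoid libraries together, against 3 and 23 in the pro-myeloid libraries. Aldh8a1 had 2 counts in pro-lymphoid against 6 in pro-myeloid libraries.

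The pathways around the listed enzymes were described with 4 gene lists, and their counts come from the fit over all genes. These lists too were chosen with earlier results of these data known. Their counts and medians are therefore descriptions and no test of the pathways. Among 10 genes of fatty aldehyde and related lipid metabolism, 8 entered the fit, 5 fell in pro-lymphoid culture and the other 3 did not pass (median log2 fold change -0.87). Not all of them make a fatty aldehyde, so the count says nothing on fatty aldehyde supply. Phyh and Hacl1, the hydroxylase and lyase of phytanic acid breakdown in peroxisomes, act before the fatty aldehyde step. Phyh had 6.62, 9.44 and 6.61 CPM in lymphoid replicates 1, 5 and 6, against 20.2, 50.4 and 43.0 CPM in myeloid replicates 2, 3 and 4 (log2 fold change -2.32 ± 0.36, SE, edgeR adjusted p = 0.00249). Hacl1 stood at 9.25, 12.6 and 10.96 CPM in pro-lymphoid against 23.9, 61.0 and 61.4 CPM in pro-myeloid libraries (-2.15 ± 0.36, edgeR adjusted p = 0.00374). Myeloid replicate 2 was the lowest pro-myeloid library for both, as it was for Aldh3a2.

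The sphingosine-1-phosphate phosphatase gene Sgpp1 stood at 65.4 ± 3.84 CPM in pro-lymphoid and 153 ± 3.99 CPM in pro-myeloid culture (SD, n = 3 each; log2 fold change -1.23 ± 0.10, SE, edgeR adjusted p = 0.000159). The sphingosine kinase gene Sphk2 fell by 0.52 ± 0.15 in log2 terms (66.2 ± 1.97 CPM in pro-lymphoid and 95.1 ± 19.4 CPM in pro-myeloid culture, edgeR adjusted p = 0.0322). The fatty acyl reductase gene Far2 had 2.60, 1.78 and 2.68 CPM in lymphoid replicates 1, 5 and 6, against 3.93, 16.4 and 31.1 CPM in myeloid replicates 2, 3 and 4. It fell by 2.87 ± 0.70 in log2 terms (edgeR adjusted p = 0.0158). Without myeloid replicate 4 the value was -2.09. The calls of both were lost without lymphoid replicate 5 or 6, that of Sphk2 also without lymphoid replicate 1 and that of Far2 with limma-voom, so that 3 genes passed without lymphoid replicate 5 and 3 without replicate 6. Far1, the other fatty acyl reductase gene, was not called, at 135 ± 15.1 CPM in pro-lymphoid and 117 ± 2.06 CPM in pro-myeloid culture (edgeR adjusted p = 0.193). The sphingosine-1-phosphate lyase gene Sgpl1, singled out after its values were seen, was not called either, and its groups overlapped. It stood at 49.9 ± 11.85 CPM in pro-lymphoid and 66.9 ± 12.2 CPM in pro-myeloid culture (edgeR adjusted p = 0.158).

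Among 17 partners in proline, GABA and lysine metabolism, 8 entered the fit, 2 rose, 2 fell and 4 did not pass (median log2 fold change -0.09). Prodh, which starts the proline breakdown that Aldh4a1 completes, fell, at 5.62, 5.60 and 7.45 CPM in pro-lymphoid against 19.5, 17.9 and 23.5 CPM in pro-myeloid libraries (log2 fold change -1.70 ± 0.21, SE, edgeR adjusted p = 0.000874). Pycrl, a reductase gene of proline synthesis, rose, at 49.5 ± 3.96 CPM in pro-lymphoid and 35.8 ± 1.98 CPM in pro-myeloid culture (SD, n = 3 each; log2 fold change 0.46 ± 0.12, SE, edgeR adjusted p = 0.0206). The Pycrl call ended when lymphoid replicate 5, lymphoid replicate 6 or myeloid replicate 4 was left out.

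Gcdh, of the later lysine pathway, fell by 0.46 ± 0.14 in log2 terms (24.6, 20.4 and 20.2 CPM in pro-lymphoid against 30.4, 28.4 and 30.6 CPM in pro-myeloid libraries, edgeR adjusted p = 0.0394). This call held without lymphoid replicate 1 and ended when any of the other 5 libraries was left out, with upper-quartile scaling or with no scaling factors. The list held 2 called genes without lymphoid replicate 5, lymphoid replicate 6 or myeloid replicate 4. Akr7a5, a reductase of succinic semialdehyde, and Glud1, the glutamate dehydrogenase gene, were not called. Akr7a5 stood at 29.6 ± 1.12 CPM in pro-lymphoid and 25.6 ± 0.988 CPM in pro-myeloid culture (edgeR adjusted p = 0.212), and Glud1 at 236 ± 28.2 CPM in pro-lymphoid and 269 ± 20.3 CPM in pro-myeloid culture (edgeR adjusted p = 0.271). Prodh2, Gad1 and Aadat had 0 counts in all libraries, and Abat, the GABA transaminase gene upstream of Aldh5a1, did not enter the fit.

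The retinoid list, the pathway of the ALDH1A genes that were at or near 0, had 28 genes, of which 13 entered the fit, 1 rose, 2 fell and 10 did not pass (median log2 fold change -0.21). DESeq2 called 5. Lrat, Stra6, Crabp1, Adh1, Adh7 and Rxrg had 0 counts in all libraries. Fabp5, a fatty acid and retinoic acid carrier, rose, at 51.6, 75.3 and 76.0 CPM in pro-lymphoid against 13.2, 12.6 and 21.3 CPM in pro-myeloid libraries (log2 fold change 2.10 ± 0.26, SE, edgeR adjusted p = 0.000916). Rdh12, a retinal reductase gene, fell by 2.61 ± 0.30 (2.92 ± 1.02 CPM in pro-lymphoid and 17.7 ± 3.72 CPM in pro-myeloid culture, edgeR adjusted p = 0.00074), and the retinoid X receptor gene Rxra by 2.61 ± 0.53 (0.901 ± 0.647 CPM in pro-lymphoid and 5.47 ± 2.54 CPM in pro-myeloid culture, edgeR adjusted p = 0.00798). Without lymphoid replicate 5 the value for Rxra was -3.37. Rxrb, the most abundant receptor gene of the list, was not called (133 ± 5.69 CPM in pro-lymphoid and 150.5 ± 21.3 CPM in pro-myeloid culture, edgeR adjusted p = 0.310). Neither were Rdh13 (16.1 ± 0.748 CPM in pro-lymphoid and 10.8 ± 2.83 CPM in pro-myeloid culture, edgeR adjusted p = 0.0699) and Dhrs3, a retinal reductase gene induced by retinoic acid (35.9 ± 22.1 CPM in pro-lymphoid and 71.3 ± 24.6 CPM in pro-myeloid culture, edgeR adjusted p = 0.110). DESeq2 called both (adjusted p = 0.0441 and 0.0464), edgeR called Rdh13 without myeloid replicate 2 or with upper-quartile scaling, limma-voom called Rdh13, and edgeR called Dhrs3 without lymphoid replicate 1 (-1.62, edgeR adjusted p = 0.0111).

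Among 14 other enzymes that clear aldehydes, 9 entered the fit, 3 fell and the other 6 did not pass (median log2 fold change -0.30). Ptgr1, which reduces unsaturated aldehydes and ketones of lipid peroxidation, had 0.298, 15.9 and 3.91 CPM in lymphoid replicates 1, 5 and 6, against 203, 256 and 282 CPM in myeloid replicates 2, 3 and 4 (log2 fold change -5.21 ± 0.97, SE, edgeR adjusted p = 0.00542, with -6.83 without lymphoid replicate 5 and -6.47 by limma-voom). The pro-lymphoid libraries differed widely from each other and all lay far below the pro-myeloid ones. The carbonyl reductase gene Cbr1 had 0.543, 0.889 and 2.02 CPM in lymphoid replicates 1, 5 and 6, against 8.83, 10.9 and 11.9 CPM in myeloid replicates 2, 3 and 4 (log2 fold change -3.16 ± 0.41, SE, edgeR adjusted p = 0.00122, with -3.87 without lymphoid replicate 6). Its paralog Cbr3 had 0.787, 0.419 and 0.279 CPM in pro-lymphoid against 1.12, 5.42 and 3.53 CPM in pro-myeloid libraries (-2.77 ± 0.67, edgeR adjusted p = 0.016), and this call ended without lymphoid replicate 5 or without replicate 6.

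Gsta4, a glutathione transferase gene for lipid aldehydes, stood at 0.770 ± 0.164 CPM in pro-lymphoid and 1.44 ± 0.315 CPM in pro-myeloid culture (edgeR adjusted p = 0.0612) and Esd, of formaldehyde clearance, at 122 ± 14.2 CPM in pro-lymphoid and 150.3 ± 7.44 CPM in pro-myeloid culture (edgeR adjusted p = 0.0856), both without a call. The abundant aldehyde reductase gene Akr1a1 was not called (540 ± 27.8 CPM in pro-lymphoid and 433 ± 66.8 CPM in pro-myeloid culture, edgeR adjusted p = 0.120). Adh5, the formaldehyde dehydrogenase gene that works beside Aldh2 in blood stem cells and was singled out after its values were seen, was not called either (121 ± 13.98 CPM in pro-lymphoid and 100.2 ± 9.09 CPM in pro-myeloid culture, edgeR adjusted p = 0.127). Akr1b3 and Aox3 are listed at 0 in all libraries.

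**Figure D4:**
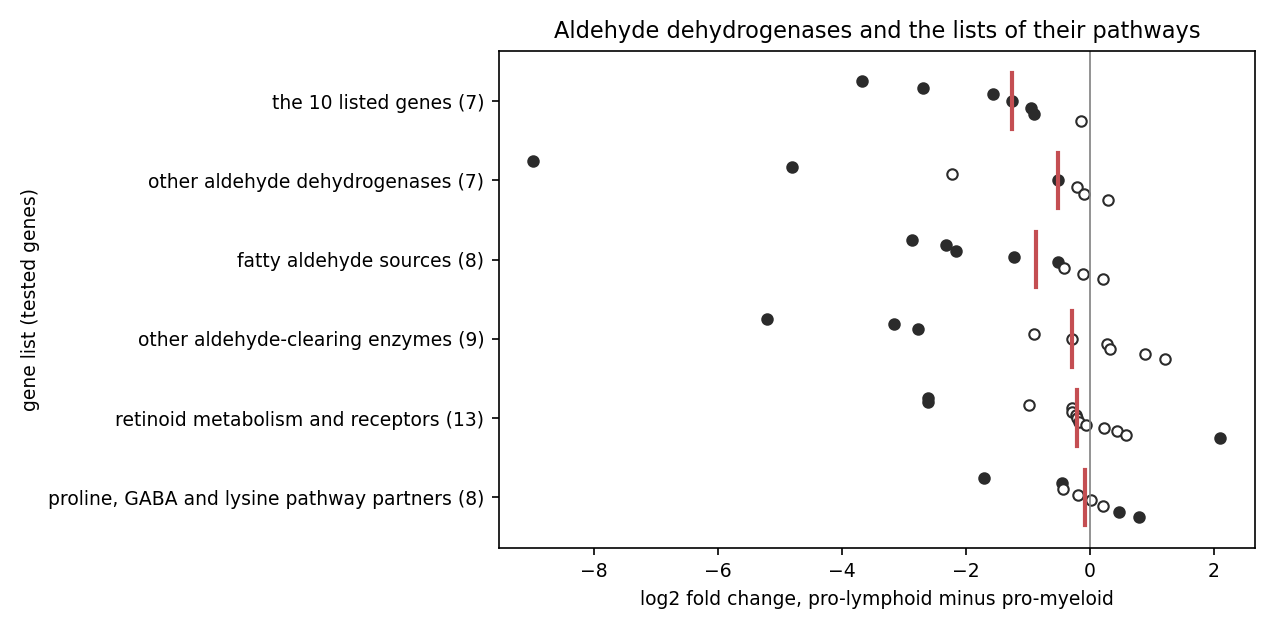
Difference of pro-lymphoid minus pro-myeloid culture on the log2 scale (x axis) of the fitted genes of 6 lists (y axis, with the number fitted), each point being 1 gene: filled points passed the edgeR threshold, open points did not, and a line marks each list's median. The medians run from -1.26 for the 10 listed genes to -0.09 for the proline, GABA and lysine partners. The 10 genes were chosen with this contrast known, and the other lists with earlier results of these data known.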

How the data were processed

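Trizol RNA was poly(A)-selected and sequenced single-end on a HiSeq from NEBNext Ultra libraries, per the labels' protocols. The authors deposited raw counts per gene, made with featureCounts 1.5.1 (primary alignments, UCSC mm10 genes, no strand option), per the file headers. Trimmomatic, Bowtie, TopHat and DESeq2 are named in the submitters' processing notes, with settings not given in the sources used here.

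The members and lists were chosen with earlier results of these data known. Counts of 6 libraries were fitted in edgeR 4.0.16 (R 4.3.3): filterByExpr, TMM scaling (factors 0.961 to 1.05), quasi-likelihood F test, two-sided, Benjamini-Hochberg over 12477 genes, threshold 0.05. Standard errors are the log2 fold change over the root of F. CPM use TMM-scaled library sizes, and RPKM the gene length in the deposited table, a value of another kind. Likeness used log2(CPM + 0.05). Counting intervals are exact and conditional, and cover counting error only, since reads carry no molecular identifiers. The procedure was tested on simulated data. Of the listed symbols, 4 matched under an older symbol. Named genes of each other list were those with the smallest adjusted p, up to 6, including the most abundant that did not pass. A gene that this rule would name is not reported here. Primary-alignment counting can assign reads of near-identical copies such as Aldh1a1 and Aldh1a7 to either. Alternatives were other scaling, filters, DESeq2 1.42.0, limma-voom (limma 3.58.1) and each library left out.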

Additional observations from a re-analysis of the deposited data

How the results depend on the processing

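The listed genes were chosen by this contrast, so their number past the threshold (6 with each of the 13 alternatives) is no sign of stability. No paired analysis was possible because the groups share no replicate number. Over all genes 4821 were called, and 3086 (without lymphoid replicate 6) to 5385 when single libraries were left out. Lower calls numbered 2652, with a range of 1788 to 2907, and higher calls 2169, with a range of 1298 (without lymphoid replicate 6, and 1394 without myeloid replicate 4) to 2478. Leaving out single libraries gave 2 to 4 called genes for the proline, GABA and lysine list (4 with all libraries) and 3 to 5 for the fatty aldehyde list (5). DESeq2 called 5 retinoid genes in place of 3. Without single libraries the sign turned for 4 genes of the family and pathway lists, none of them called, whose log2 fold changes ranged from -0.29 to 0.12 for Aldh18a1, -0.35 to 0.32 for Rara, -0.03 to 0.069 for Oat and -0.37 to 0.27 for Sgpp2. The cause was not tested. Depth limits statements on Aldh1a1, Aldh1a2 and Aldh1a3 to at most a few reads per library.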
